A study of Mus musculus with 2 samples.

Results

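The 7 genes described here act on ATP and adenosine outside the cell: Entpd1, Entpd3, Nt5e, Cd38, Adora2a, Adora2b and P2rx7. They were chosen by gene symbol alone from the 32285 genes of the deposited count tables, and each symbol matched 1 gene. Counts of unique molecular identifiers (UMIs, 1 per captured RNA molecule) were summed by cell class and library. The study set a tumor grown from KPC cells with a control hairpin (KPC-shV) beside a tumor grown from KPC cells with a hairpin against Zeb1 (KPC-shZEB1). KPC cells are a mouse pancreatic cancer line from mice that carry Pdx-1-Cre, which is active in cells of the pancreas, and the cells of both groups were injected into the pancreas. Per the study's methods the hairpins were delivered by lentivirus with antibiotic selection and several individual lines were made of each kind, and which line grew these tumors is not given in the sources used here. Per the study, the tumors of both groups taken for single-cell RNA came from mice treated with gemcitabine. The labels of these 2 samples do not mention this treatment, and they do not give the strain and age of these mice. There was 1 tumor and 1 library per group. Mouse, tumor, dissociation, library and group therefore cannot be told apart, no value below has a replicate error, and no test between the groups was possible.

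Cells release ATP when they are stressed or die. Entpd1 (CD39) and Entpd3 are cell-surface enzymes that remove phosphates from ATP and ADP, and Nt5e (CD73) turns the resulting AMP into adenosine. Cd38 is a cell-surface enzyme that consumes NAD, whose products can be broken down to AMP. Adora2a and Adora2b are adenosine receptors that raise cyclic AMP, and Adora2a is best known for restraining T and NK cells. P2rx7 is an ATP-gated ion channel that opens only at high ATP. In tumors this pathway is known for converting an inflammatory signal, ATP, into an inhibitory one, adenosine.

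In the GRCm38 annotation, the build of the count tables, all members are protein-coding genes on the plus strand. Entpd1 lies on chromosome 19 from 40612366 to 40741602, Cd38 on chromosome 5 from 43868553 to 43912375 and P2rx7 on chromosome 5 from 122643911 to 122691432. Entpd3 lies on chromosome 9 from 120539818 to 120568327 and Nt5e on the same chromosome from 88327197 to 88372092. Adora2a lies on chromosome 10 from 75316877 to 75334784 and Adora2b on chromosome 11 from 62248984 to 62266453. Counted genes overlap Entpd1 (AC166063.1, same strand) and Cd38 (Gm16014, same strand, and Gm16015, opposite strand), so the split of UMIs between these neighbors is uncertain. The other members overlap no counted gene.

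The KPC-shV-labelled library held 12594 barcodes and the KPC-shZEB1-labelled library 13271, of which 11398 and 12104 were kept as cells, with 101201508 and 118943000 UMIs. The median kept cell had 3720 and 4252 UMIs, and 36 kept barcodes occurred in both libraries. Cells were grouped into 31 clusters without the members and their pathway, and clusters were named by fixed markers. The 9 classes compared are granulocyte-like, monocyte-macrophage-like, dendritic-like, B-like, T-like, NK-like, tumor-like, fibroblast-like and endothelial-like. In the tumor-like class Zeb1 was at 168 CPM in the KPC-shV-labelled library and 189 CPM in the KPC-shZEB1-labelled library, a ratio of 1.12 (1.09 to 1.17). This goes against the knockdown label, and every direction below is therefore given by library label. The tumors also differed in make-up: granulocyte-like cells were 60.2% and 35.4% of cells, T-like cells 3.57% and 10.5%, and B-like cells 2.54% and 10.1%.

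Levels are CPM, the UMIs of a gene per 1000000 UMIs of the class. Where a pair of values is given, the KPC-shV-labelled library comes first and the KPC-shZEB1-labelled library second, and a ratio is the second over the first with its exact 95% interval in parentheses. Intervals cover counting error only, not differences between mice or between cells. A gene was called higher or lower in a class when it had at least 30 UMIs over both libraries, a ratio of at least 1.5 or at most 0.667, and an interval that left out 1. The call rule was also used within clusters. The share of all genes called within a cluster is not given, so a call there does not set a member apart from other genes. Free RNA in the droplets adds UMIs to every class. Genes that a class should lack put it at 12.3% to 21.4% of a class's UMIs, and its expected level is given where it bears on a member. The expected level takes the average of all kept cells of a library as the free RNA, not empty droplets. It can be too high for a gene, so a value at or below it does not show absence. Levels are compared between cells and not between genes.

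**Figure D1:**
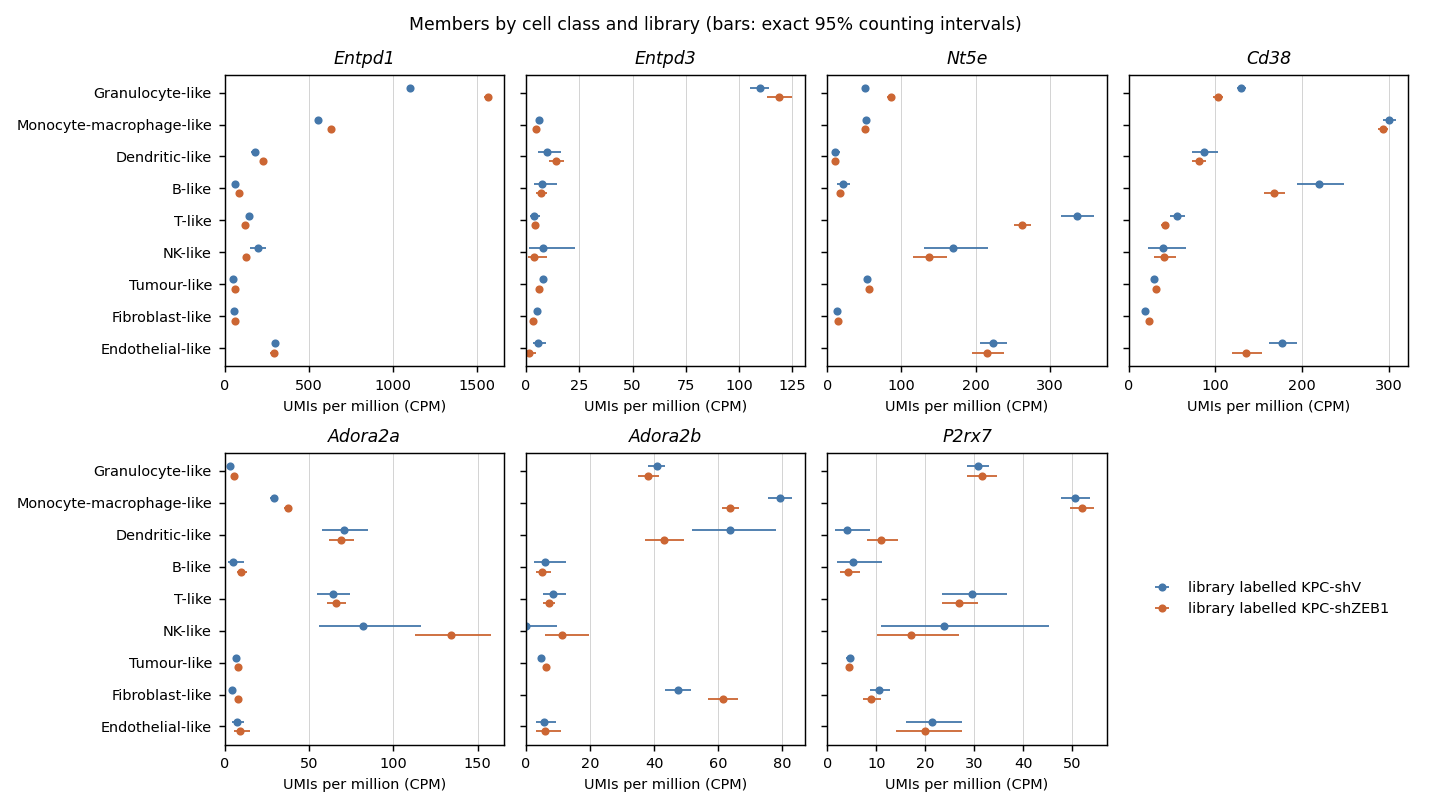
Level of each member (x axis, CPM, linear from 0, a separate scale per gene) in the 9 classes (y axis) of the KPC-shV-labelled library (blue) and the KPC-shZEB1-labelled library (orange), with exact 95% counting intervals as bars. Entpd1 and Entpd3 were highest in granulocyte-like cells, Nt5e in T-like cells, Adora2a in NK-like cells and Cd38, Adora2b and P2rx7 in monocyte-macrophage-like cells.

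Entpd1, the enzyme that starts the breakdown of ATP, was a myeloid gene in both tumors. It stood at 1103 and 1562 CPM in granulocyte-like cells, at 555 and 634 CPM in monocyte-macrophage-like cells and at 301 and 292 CPM in endothelial-like cells. The same order held in both libraries, and these 3 classes did not overlap in their intervals. In tumor-like cells Entpd1 was at 52.1 and 64.7 CPM, while free RNA alone was expected to give 58.5 and 77.6 CPM, so these cells showed no Entpd1 above background. In fibroblast-like cells 56.1 and 62.0 CPM stood beside an expected 62.6 and 75.4 CPM. Granulocyte-like cells held 59.8% and 39.8% of all Entpd1 UMIs, and monocyte-macrophage-like cells held 28.9% and 43.0%.

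Within granulocyte-like cells, Entpd1 was graded over clusters. It was highest in cluster 2, led by Retnlg, S100a9 and S100a8, of which the last 2 encode abundant neutrophil proteins, at 2223 and 3023 CPM. In the interferon-response cluster 4 (Rsad2, Ifit1) it was at 1215 and 2097 CPM and in cluster 0 (Med12l, Mmp9) at 790.4 and 1132 CPM. It was lowest in cluster 1, led by Mreg and Ero1l, at 462 and 536 CPM. Every cluster of the 4 was higher in the KPC-shZEB1-labelled library, with ratios from 1.16 (1.08 to 1.24) in cluster 1 to 1.73 (1.65 to 1.81) in cluster 4, the only cluster of the 4 called. Over the whole class the ratio was 1.42 (1.39 to 1.44), under the fold needed for a call. Genes of at least 50 CPM in this class had a median log2 ratio of 0.10 and all genes tested 0.24, against 0.50 for Entpd1.

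**Figure D2:**
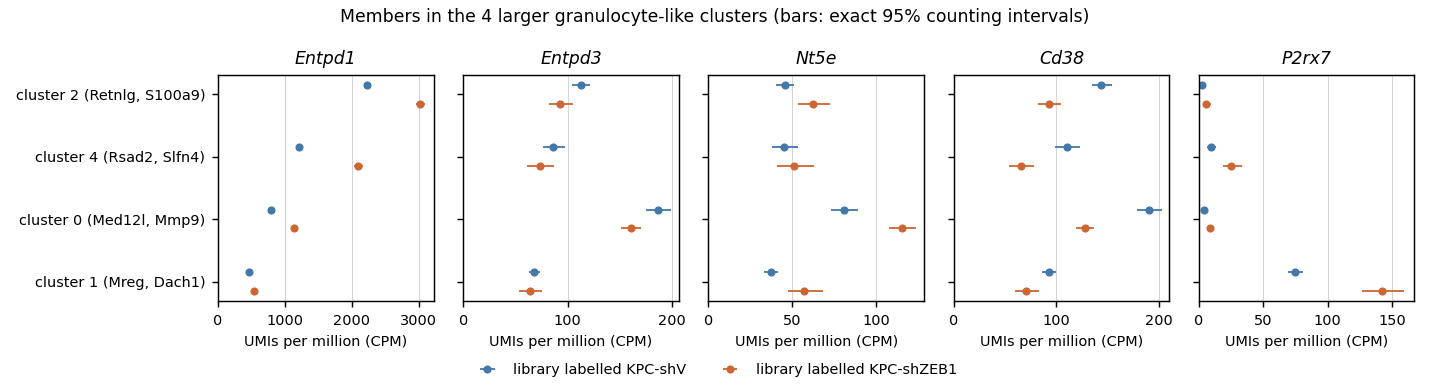
Level (x axis, CPM, linear from 0) of 5 members in the 4 larger granulocyte-like clusters (y axis, with 2 leading genes each) of the KPC-shV-labelled library (blue) and the KPC-shZEB1-labelled library (orange), with exact 95% counting intervals as bars. Entpd1 runs from cluster 2 down to cluster 1 in both libraries, and P2rx7 is concentrated in cluster 1 at 74.8 and 143 CPM.

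Entpd3, a related enzyme, was nearly a granulocyte-like gene. Its level there was 109.6 and 119 CPM, and 22.9% and 23.1% of these cells had a UMI of it at median depths of 3147 and 2914 UMIs. T-like cells, with more UMIs per cell (medians 5380 and 4904), had a UMI of it in 2.46% and 2.51% of cells. The other 8 classes reached at most 14.1 CPM, and granulocyte-like cells held 82.4% and 69.8% of all Entpd3 UMIs. Outside the 9 classes, the unnamed cluster 17 (Pnlip, Trem1, Mmp9, 8 and 287 cells) had 117 and 136 CPM, from 3 and 104 UMIs. It held 4.59% of the Entpd3 UMIs of the KPC-shZEB1-labelled library. Cluster 0 had the highest level of the 4 larger granulocyte-like clusters at 187 and 160.4 CPM. The direction between libraries depended on the clusters: the class ratio was 1.08 (1.02 to 1.16), but the ratio was 0.86 (0.78 to 0.94) in cluster 0, 0.94 (0.78 to 1.14) in cluster 1, 0.82 (0.71 to 0.95) in cluster 2 and 0.85 (0.69 to 1.05) in cluster 4. With the cluster make-up of the KPC-shV-labelled library held fixed, the class ratio became 0.861. Cluster 0 was 21.9% of granulocyte-like cells in the KPC-shV-labelled library and 47.5% in the KPC-shZEB1-labelled library, and cluster 1 was 40.2% and 17.3%. In fibroblast-like cells Entpd3 was called lower at 5.13 and 3.25 CPM, a ratio of 0.63 (0.40 to 0.98), where free RNA alone was expected to give 4.52 and 3.27 CPM.

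Nt5e, which makes adenosine, was highest in cells other than those that led for Entpd1. T-like cells had 337 and 263 CPM, endothelial-like cells 224 and 215 CPM and NK-like cells 169 and 138 CPM. T-like and endothelial-like intervals did not overlap in either library, and nor did endothelial-like and NK-like intervals in the KPC-shZEB1-labelled library, while in the KPC-shV-labelled library they did. Nt5e was at 50.7 and 86.1 CPM in granulocyte-like cells, where it was called higher with a ratio of 1.70 (1.56 to 1.84). Within clusters the ratios were smaller, from 1.13 (0.86 to 1.48) in cluster 4 to 1.54 (1.24 to 1.90) in cluster 1 (1.28 without the 5 leading cells of each library, not called), and the ratio with the cluster make-up held fixed was 1.39, which is under the call. Monocyte-macrophage-like cells showed 51.7 and 51.2 CPM, a ratio of 0.99 (0.92 to 1.07), and in them Nt5e was lower in the Ccl8 and Apoe cluster 5 (15.3 and 14.9 CPM) than in clusters 6 and 7 (66.0 and 69.3 CPM, and 69.2 and 62.9 CPM).

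Tumor-like cells had 52.9 and 56.3 CPM of Nt5e, a ratio of 1.07 (1.00 to 1.14), and their clusters spanned a wider range than the libraries did. Cluster 8, the cluster with the most Epcam (844 and 908 CPM), an epithelial adhesion gene, had 119 and 113 CPM of Nt5e. Cluster 9, led by Prg4 and Grem1 and low in Epcam (21.6 and 28.9 CPM), had 11.3 and 10.6 CPM, beside 8.24 and 11.7 CPM expected from free RNA in the class. Zeb1 was at 109.9 and 128 CPM in cluster 8 and at 219 and 263 CPM in cluster 9, but the other clusters did not order Nt5e by Zeb1. Cluster 14 (Dbf4, S100a14) had the lowest Zeb1, at 47.8 and 54.4 CPM, with 20.5 and 22.6 CPM of Nt5e. Cluster 9 was 37.4% of tumor-like cells in the KPC-shV-labelled library and 17.5% in the KPC-shZEB1-labelled library. A cluster of 24 cells found only in the KPC-shV-labelled library (cluster 29, led by Rbp2 and Anxa10) had 225 CPM (152 to 321) of Nt5e from 30 UMIs and 218 CPM of Zeb1.

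Among T-like cells, Nt5e was found in 62.4% and 51.1% of cells. Regulatory T-like cells (Foxp3) had 496 and 437 CPM, and the CD4 T-like sub-cluster 2 (Cd40lg, Il21) had 445 and 434 CPM. The CD4 T-like sub-cluster 3, led by S1pr1 and Trib2, had 140 and 99.3 CPM, the lowest level of the T-like sub-clusters in both libraries. Small sub-clusters stood apart in both directions. The gamma-delta T-like sub-cluster had 774 and 229.9 CPM over 8 and 13 cells. These levels came from 32 and 17 UMIs, of which 1 cell held 19 and 9. The CD8 T-like sub-cluster 8, led by the cycling genes Mki67 and Pclaf, had 345 and 108 CPM over 25 and 57 cells, a ratio of 0.31 (0.25 to 0.40), and 5 cells held 53.5% of these UMIs in the KPC-shV-labelled library. An unnamed Il23r and Zbtb16 sub-cluster (sub-cluster 9) went the other way, at 391 and 753 CPM over 24 and 44 cells, a ratio of 1.93 (1.41 to 2.67), and 5 cells held 66.0% and 40.8% of its Nt5e UMIs.

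Entpd1 in T-like cells was at 146 and 121 CPM over an expected free-RNA level of 62.0 and 80.3 CPM, a ratio of 0.83 (0.74 to 0.94). Its highest level was in the CD8 T-like sub-cluster 13 (Gzmk, 7 and 37 cells) of the KPC-shV-labelled library, at 422 CPM against 117 CPM in the other library. Next was the CD8 T-like sub-cluster 5, led by Gm156 and Tmem163 with Prf1, the perforin gene of killer cells, at 380.4 and 245 CPM, a ratio of 0.64 (0.52 to 0.81). In the latter, the 5 leading cells held 58.1% of the Entpd1 UMIs of the KPC-shV-labelled library and 22.8% of those of the KPC-shZEB1-labelled library, and without them the ratio was 1.06 (0.77 to 1.47). The CD8 T-like sub-cluster 1 (Dapl1, Cmah) had 22.0 and 64.8 CPM, a ratio of 2.95 (1.09 to 11.2), with both levels under the free-RNA level expected for T-like cells. Over all CD8 T-like sub-clusters Entpd1 was at 167 and 137 CPM, and over the CD4 T-like ones at 171 and 113 CPM, a ratio of 0.66 (0.52 to 0.84). In the CD4 T-like cells of the KPC-shV-labelled library 5 of 105 cells held 52.5% of the 99 UMIs, and without the 5 leading cells of each library the ratio was 0.998 (0.719 to 1.41). In NK-like cells it was called lower at 196 and 129 CPM, a ratio of 0.66 (0.49 to 0.89). This call rested on few cells: 5 of the 54 NK-like cells of the KPC-shV-labelled library held 56.8% of its 74 UMIs, and without the 5 leading cells of each library the ratio was 1.14 (0.76 to 1.74).

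**Figure D3:**
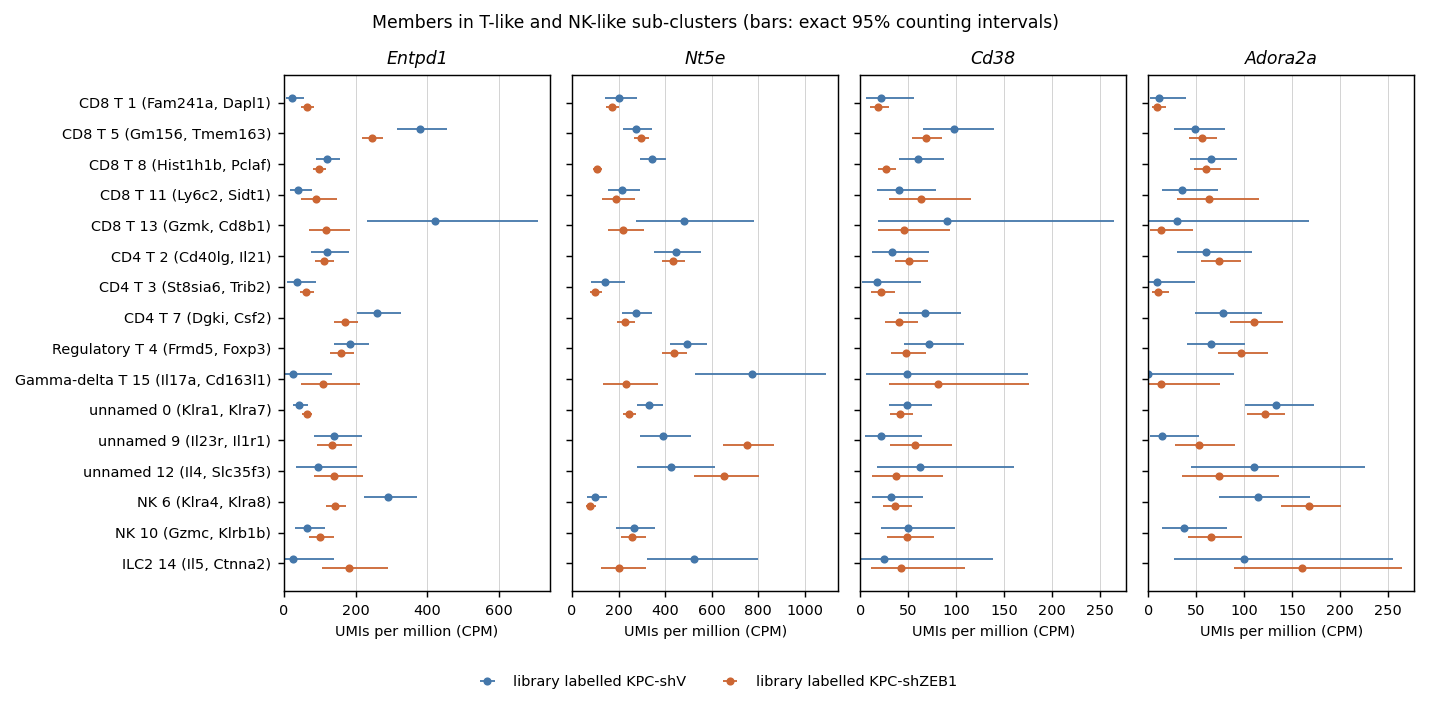
Level (x axis, CPM, linear from 0) of 4 members in the 16 T-like, NK-like and ILC2-like sub-clusters (y axis, with name, number and 2 leading genes) of the KPC-shV-labelled library (blue) and the KPC-shZEB1-labelled library (orange), with exact 95% counting intervals as bars. Nt5e is present in all sub-clusters, and Entpd1 peaks in the CD8 T-like sub-clusters 5 and 13 and in the NK-like sub-cluster 6 of the KPC-shV-labelled library.

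Cd38 was highest in monocyte-macrophage-like cells at 301 and 293 CPM, a ratio of 0.98 (0.95 to 1.01). Within them it was higher in cluster 5 (Ccl8, Ms4a7, Apoe) at 432 and 423 CPM than in cluster 6 (Mmp12) at 227 and 208 CPM or in the Ccr2 cluster 7 at 268 and 309 CPM. B-like cells followed at 219.7 and 168 CPM, endothelial-like cells at 177 and 135 CPM and granulocyte-like cells at 130.0 and 103 CPM. Among these 4 classes only the B-like and endothelial-like intervals of the KPC-shV-labelled library overlapped. The granulocyte-like ratio was 0.79 (0.74 to 0.84), opposite in direction to Entpd1 and Nt5e in the same cells, and it was 0.59 (0.47 to 0.73) in cluster 4 and 0.65 (0.56 to 0.74) in cluster 2, both called lower. With the cluster make-up held fixed it was 0.681. Tumor-like cells (28.9 and 31.5 CPM) stood beside an expected free-RNA level of 17.4 and 24.4 CPM. Fibroblast-like cells (18.6 and 23.3 CPM) stood beside 18.6 and 23.7 CPM, so their Cd38 was not above the expected free-RNA level.

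Adora2a was highest in NK-like cells at 82.1 and 134 CPM, followed by dendritic-like cells at 70.5 and 69.0 CPM and T-like cells at 64.1 and 66.2 CPM. In the KPC-shV-labelled library these 3 classes did not differ beyond their intervals, and in the KPC-shZEB1-labelled library only NK-like cells stood apart. With each library clustered alone, dendritic-like cells led in the KPC-shV-labelled one. NK-like cells were called higher, with a ratio of 1.63 (1.10 to 2.49). The mean over cells gave 1.44, which is not a call. Cluster 11, named NK before T and NK cells were clustered again, had 108 and 121 CPM of Adora2a. Its ratio was 1.12 (0.89 to 1.42), not called, over 139 and 443 cells, some of them counted here as T-like. Within dendritic-like cells Adora2a was mostly in cluster 23, led by Ccl22 and Ccr7, genes of dendritic cells that migrate to lymph nodes. It had 204 and 171 CPM there and 20.2 and 31.4 CPM in cluster 18 (Ccl17, Pkib). Among T-like cells, the unnamed Klra1 and Klra7 sub-cluster 0 had 133 and 122 CPM, while sub-cluster 1 (Dapl1) and sub-cluster 3 (S1pr1) had from 8.74 to 10.99 CPM. Monocyte-macrophage-like cells had 29.3 and 37.5 CPM, a ratio of 1.28 (1.16 to 1.41), and their cluster 5 was called higher at 9.10 and 21.7 CPM, a ratio of 2.38 (1.79 to 3.22). Calls in granulocyte-like cells (3.20 and 5.86 CPM) and fibroblast-like cells (4.58 and 7.79 CPM) lie near the free-RNA levels of 2.12 and 5.16 CPM and of 2.02 and 4.14 CPM. After free RNA was subtracted the granulocyte-like ratio was 0.653 and the fibroblast-like ratio 1.42, and neither was called.

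Adora2b, the lower-affinity adenosine receptor, was at 79.3 and 63.7 CPM in monocyte-macrophage-like cells, 47.4 and 61.5 CPM in fibroblast-like cells, 63.9 and 43.0 CPM in dendritic-like cells and 40.8 and 38.2 CPM in granulocyte-like cells. Among the classes compared, monocyte-macrophage-like cells had the highest level in both libraries. Their interval overlapped that of dendritic-like cells in the KPC-shV-labelled library and that of fibroblast-like cells in the KPC-shZEB1-labelled library. In the latter, fibroblast-like cells had the highest level with no doublets removed, at resolution 0.6 and with each library clustered alone. Outside these classes, the unnamed cluster 21 (Mcpt1, Mcpt2, 95 and 96 cells) had 89.1 and 57.1 CPM, from 39 and 31 UMIs. Its level in the KPC-shV-labelled library was above that of monocyte-macrophage-like cells, and this difference was not tested. Cluster 7, marked by Ccr2, a receptor of monocytes that enter tissue, was highest in its class at 153 and 123 CPM, against 45.6 and 46.8 CPM in cluster 5 and 51.8 and 52.5 CPM in cluster 6. In dendritic-like cells the receptors divided the clusters: cluster 18 had 86.1 and 53.6 CPM of Adora2b and cluster 23 had 4.86 and 14.2 CPM, the reverse of Adora2a. Cluster 18 was called lower, with a ratio of 0.62 (0.48 to 0.81) that was 0.759 and not called without the 5 leading cells of each library, and the dendritic-like class had 0.674 (0.526 to 0.868), short of the fold limit. Among granulocyte-like clusters Adora2b was called lower in cluster 4, at 35.7 and 15.7 CPM. T-like, B-like, NK-like, endothelial-like and tumor-like cells had from 0 to 11.3 CPM, against 4.34 to 6.69 CPM expected from free RNA.

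P2rx7, the ATP-gated channel, was at 50.5 and 52.0 CPM in monocyte-macrophage-like cells, a ratio of 1.03 (0.95 to 1.11). In them it was highest in cluster 5 at 93.8 and 78.4 CPM and lowest in cluster 7 at 22.9 and 30.3 CPM. T-like cells had 29.5 and 26.9 CPM. Dendritic-like cells were called higher at 3.99 and 10.96 CPM, a ratio of 2.75 (1.18 to 7.83), where free RNA was expected to give 4.97 and 4.71 CPM. The level in the KPC-shV-labelled library was thus no higher than the expected free-RNA level. The ratio rests on 6 and 52 UMIs, and 5 cells held 53.8% of those in the KPC-shZEB1-labelled library.

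In granulocyte-like cells P2rx7 had 30.7 and 31.5 CPM, a ratio of 1.03 (0.91 to 1.16), but this hid a split between clusters. Cluster 1 had 74.8 and 143 CPM, a ratio of 1.91 (1.66 to 2.19), and clusters 0, 2 and 4 had from 2.53 to 9.16 CPM and from 5.73 to 25.3 CPM. All 4 were called higher, in a class where 21.2% of all tested genes were called higher. Free RNA was expected to give 3.80 and 5.84 CPM in this class, so clusters 0 and 2 lay near or under it. Cluster 1 was 40.2% of the class in the KPC-shV-labelled library and 17.3% in the KPC-shZEB1-labelled library. With the cluster make-up held fixed the class ratio was 1.95. Few cells carried the transcript. In cluster 1, 144 of 2756 cells and 55 of 740 cells had a UMI of P2rx7, which is 5.22% and 7.43%. Cells with 5 or more UMIs were 38 and 15 in number and held 71.5% and 81.5% of the P2rx7 UMIs, and the highest single cell had 66 and 43 UMIs. The counting interval does not cover this spread between cells. Without the 5 leading cells of each library the ratio was 1.15 (0.94 to 1.39) in cluster 1 and 1.07 (0.29 to 3.43) in cluster 2, neither of them called, and 2.27 (1.21 to 4.51) in cluster 0 and 2.46 (1.14 to 5.47) in cluster 4.

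Of the 63 member and class pairs, 57 had the 30 UMIs needed, 5 were called higher and 2 lower, and calls were read against the share of all tested genes called in the same class. In granulocyte-like cells 2 of 7 members were called higher (Nt5e and Adora2a) and 0 lower, where 21.2% of all genes were called higher and 2.44% lower. In monocyte-macrophage-like cells 0 of 7 were called in either direction, against 7.67% and 1.56% of all genes, and in tumor-like cells 0 of 7, against 10.8% and 3.66%. Dendritic-like cells had 1 of 7 higher (P2rx7) and 0 lower, against 5.62% and 3.62%. NK-like cells had 1 of 4 higher (Adora2a) and 1 lower (Entpd1), against 5.07% and 3.55%. Fibroblast-like cells had 1 of 7 higher (Adora2a) and 1 lower (Entpd3), against 5.62% and 4.75%. None was called in either direction among 6 in B-like cells (6.24% and 1.82%), 7 in T-like cells (5.01% and 2.22%) and 5 in endothelial-like cells (8.1% and 3.98%). With so few members, these counts do not set the members apart from other genes.

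**Figure D4:**
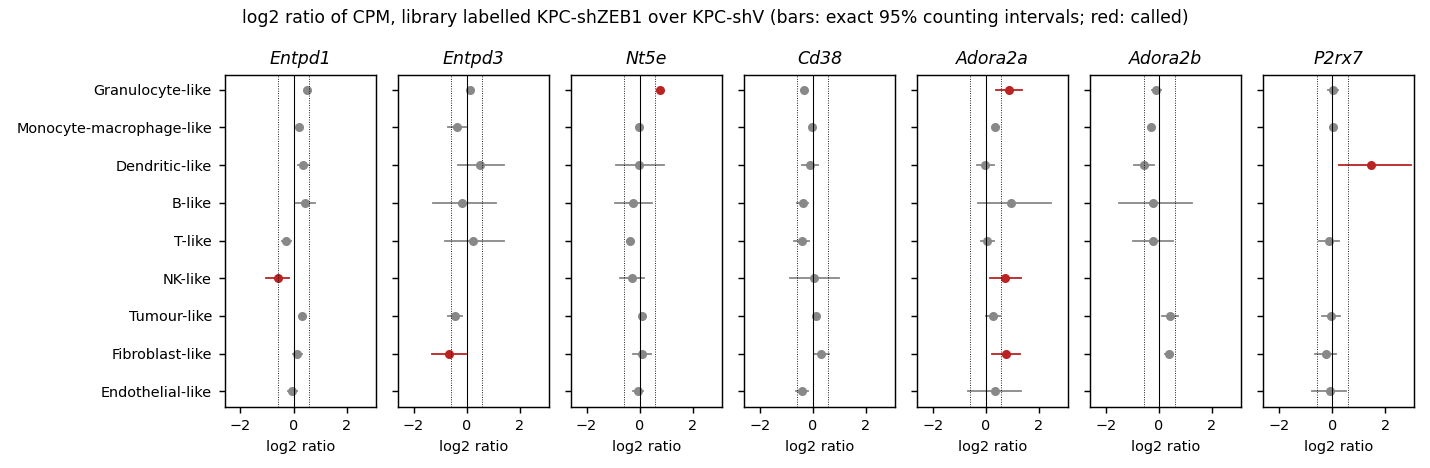
log2 ratio of CPM (x axis), KPC-shZEB1-labelled over KPC-shV-labelled library, for each member (panels) in each class (y axis) with at least 30 UMIs, with exact 95% counting intervals as bars. Dotted lines mark the fold of 1.5 in each direction, and red marks the 5 pairs called higher and the 2 called lower.

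Over all kept cells, Adora2a was 13.4 and 24.2 CPM, a ratio of 1.80 (1.69 to 1.93), and Entpd3 was 30.0 and 19.1 CPM, a ratio of 0.635 (0.601 to 0.671). The other 5 members lay between 0.972 for Adora2b and 1.14 for P2rx7. To separate make-up from level, class levels of one library were combined with the class shares of UMIs of the other. With class levels of the KPC-shV-labelled library and only the make-up changed, Entpd3 had a ratio of 0.630, Adora2a 1.47 and Entpd1 0.848. With the make-up held fixed and only the levels changed, Entpd3 had 1.03, Adora2a 1.28 and Entpd1 1.31. For Entpd3 the make-up alone gave nearly the whole ratio, with granulocyte-like cells at 22.6% and 11.2% of UMIs. For Entpd1 both parts went in opposite directions, and the ratio over all cells was 1.06 (1.04 to 1.07). Fewer cells of a type and less RNA per cell cannot be told apart in a value over all cells.

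**Figure D5:**
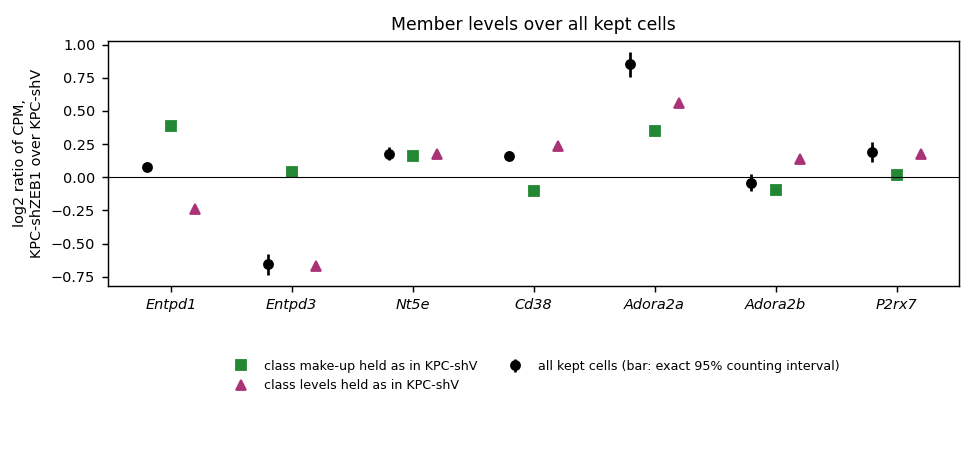
log2 ratio of CPM over all kept cells (y axis), KPC-shZEB1-labelled over KPC-shV-labelled library, for each member (x axis): as measured (black, with exact 95% counting interval), with the class make-up held as in the KPC-shV-labelled library (green squares) and with the class levels held as in that library (purple triangles). For Entpd3 the measured value and the make-up value are close at ratios of 0.635 and 0.630, and for Entpd1 both parts lie on opposite sides of 0.

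Since Entpd1 and Nt5e act in sequence, cells with a UMI of both were counted. Endothelial-like cells had both in 57.7% (48.5% to 66.6%) and 56.1% (44.7% to 67.0%) of cells, and regulatory T-like cells in 30.8% and 28.2%. CD8 T-like cells had both in 30.8% of cells in each library (22.7% to 39.9% and 26.4% to 35.5%). Granulocyte-like cells had both in 6.89% and 10.2%. Tumor-like cells had both in 23.1% and 30.2%, at median depths of 24681 and 24498 UMIs. In these cells Entpd1 was no higher than the expected free-RNA level. If both genes were detected independently, the share with both would be the product of their shares. In 3 of 18 class and library points (tumor-like cells of both libraries and T-like cells of the KPC-shZEB1-labelled library) that product lay under the interval of the observed share. With 1000 UMIs drawn from every cell it lay outside the interval in 0 of 18. The product then predicted 2.99 and 4.25 tumor-like cells with both, so only a large excess could have been seen there. At that depth the share of cells with both was 3.44% and 2.12% in T-like cells, 2.44% in endothelial-like cells of either library and 0.21% and 0.22% in tumor-like cells.

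The wider pathway was described by 40 other genes listed for ATP release, nucleotide breakdown, adenosine removal and transport, and receptors named P2X, P2Y or adenosine receptors. Of these, 39 were in the tables. In granulocyte-like cells 8 of 26 tested were higher and 0 lower, where 21.2% of all genes were called higher and 2.44% lower, with a median log2 ratio of 0.34 against 0.24 for all genes. P2ry10, a receptor best known in lymphocytes, was listed with the P2Y group by its symbol, and its response to purines was not examined. P2ry10 had 2.54 and 10.4 CPM, and Dpp4, a T-cell peptidase, had 1.84 and 5.49 CPM. Both were at or below the level expected from free RNA in this class, and both were called higher in tumor-like cells too, also at or below it. Acpp, an AMP phosphatase, was above it, at 7.80 and 18.9 CPM, a ratio of 2.42 (1.99 to 2.95), and Entpd6 was at 1.97 and 3.83 CPM. P2ry14, a receptor for UDP-sugars, was not among the 4 largest ratios but was the most counted gene of the list called here, at 92.1 and 151 CPM, a ratio of 1.64 (1.55 to 1.75).

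In monocyte-macrophage-like cells 7 of 30 pathway genes were higher and 0 lower, against 7.67% and 1.56% of all genes, with a median log2 ratio of 0.09 against 0.04 for all genes. These were led by P2ry10 (7.48 and 17.3 CPM), Acpp (3.56 and 7.11 CPM), Entpd2 (0.64 and 1.24 CPM, under its free-RNA level) and Slc17a9, the vesicular ATP transporter (1.55 and 2.79 CPM). Tumor-like cells had 7 of 31 higher and 2 lower, against 10.8% and 3.66%, with a median of 0.08 against 0.03. P2rx3 was lower at 2.15 and 1.09 CPM and the nucleoside transporter Slc28a2 at 3.97 and 2.22 CPM, while Entpd8, an ectonucleotidase of epithelia, was higher at 0.96 and 1.86 CPM and P2ry13 at 1.33 and 2.31 CPM, near its free-RNA level of 1.58 and 2.00 CPM. Fibroblast-like cells had 3 of 24 higher and 2 lower, against 5.62% and 4.75%, with a median of 0.11 against -0.03. The lower genes were Enpp1 (46.5 and 29.0 CPM, a ratio of 0.62, 0.54 to 0.72) and Enpp3 (35.8 and 22.6 CPM, a ratio of 0.63, 0.54 to 0.74), both ectonucleotidases that cut ATP to AMP, and both were well above the free-RNA level. The higher genes were P2ry10 (4.30 and 9.83 CPM), P2ry6 (3.39 and 7.05 CPM) and Slc28a2 (1.19 and 2.41 CPM), each near or under its free-RNA level in at least 1 library.

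The remaining classes held fewer calls. The shares of all genes called higher and lower were 5.62% and 3.62% in dendritic-like, 8.1% and 3.98% in endothelial-like, 6.24% and 1.82% in B-like, 5.01% and 2.22% in T-like and 5.07% and 3.55% in NK-like cells. Dendritic-like cells had 2 of 17 higher, P2ry14 (59.2 and 101 CPM, a ratio of 1.70, 1.36 to 2.16) and Adk, the kinase that removes adenosine inside the cell (25.9 and 43.9 CPM), and 0 lower. Endothelial-like cells had 3 of 16 higher (P2ry10, P2ry14 and Adk) and 1 lower, Enpp3 (10.8 and 3.31 CPM, a ratio of 0.31, 0.10 to 0.75). In these cells P2ry10 (3.73 CPM) and P2ry14 (7.46 CPM) lay near or under free RNA in the KPC-shV-labelled library. B-like cells had 1 of 17 higher, P2ry14 (5.17 and 14.8 CPM, beside 5.87 and 12.4 CPM from free RNA), and 1 lower, Entpd6 (46.5 and 27.3 CPM). T-like cells had 1 of 20 higher, P2ry14 (6.92 and 12.6 CPM, beside 7.11 and 12.5 CPM from free RNA), and NK-like cells 1 of 9, the ATP receptor P2rx4 (13.2 and 38.7 CPM from 5 and 41 UMIs), with 0 lower in each. The median log2 ratios of the list in these 5 classes were 0.08, 0.20, -0.03, 0.06 and 0.12 in the order given, against 0.02, 0.06, 0.05, 0.05 and 0.04 for all genes.

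Genes with a pattern like that of each member were sought over the 18 class and library points by Pearson's r of log2(CPM + 1), among 7071 genes of at least 50 CPM in 1 point. The points share libraries and depth, so r is a description. Entpd1 was most like N4bp1 (r = 0.94), Cpeb4 (0.91) and P2ry13 (0.91), an ADP receptor, and Entpd3 most like Spatc1 (0.95), Gm13822 (0.94) and Hdc (0.93), the histamine-forming enzyme. Nt5e was most like Notch1 (0.91), Mgat5 (0.89) and Ttc39b (0.89), and Cd38 most like Neu1 (0.86), Rasgef1b (0.84) and Pitpna (0.83). Adora2a was most like Klrk1 (0.96), Ccl5 (0.96) and Il12rb2 (0.95), genes of NK and killer T cells. Adora2b was most like Hexa (0.90), a lysosomal enzyme, and Mitf (0.87), and P2rx7 most like Vsir (0.85), Atp1b3 (0.83) and AW011738 (0.81).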

How the data were processed

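Single-cell RNA was measured in 2 mouse tumors with 10x droplets. The deposited files hold raw UMI counts (genes by barcodes). Cell Ranger 7.0.1 and mm10 are named in the submitters' processing notes. Whether intron reads were counted is not given in the sources used here. The study's cell limits were applied, that is, a minimum of 500 genes, a range of 1000 to 60000 UMIs and a mitochondrial share of no more than 15% (11713 and 12447 of 12594 and 13271 barcodes passed), and cells with a Scrublet score over 0.2 were removed as doublets (315 and 343). The study used DoubletFinder and Harmony, which were not used here, so classes can differ from the study's.

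Clustering used scanpy 1.11.5 and leidenalg 0.10.2 (3000 variable genes without the members and their pathway, 30 components, 20 neighbors, resolution 1). T and NK cells were clustered again with 2000 genes, 20 components and resolution 1.5, and T-like cells are all those sub-clusters other than NK-like and ILC2-like ones. Clusters were named "X-like" by fixed markers, and 4 stayed unnamed. UMIs were summed by class and library. With 1 library per group no test was run. Intervals are exact Poisson (levels), Clopper-Pearson (shares) and conditional binomial (ratios) at 95%, and cover counting error only. The call rule was checked on simulated counts that held counting error only. That check does not cover spread between cells or between libraries. Free RNA was estimated from genes that a class should lack, with the average of all kept cells of a library as its profile.

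The members, markers and pathway list were chosen with earlier results of these data known. Pathway genes are named for the 4 largest ratios called in each direction and class, and P2ry14 in granulocyte-like cells was added after its values were seen. Alternatives covered the cell filters, doublets, resolution, clustering of each library alone, free RNA, thinning to 1000 UMIs, mean over cells, scaling to the class median and the call minimum. Some items are not reported here.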

Additional observations from a re-analysis of the deposited data

Results flagged for a closer look

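Entpd1 had opposite directions in 2 T-like clusters. Its ratio was 1.79 (1.13 to 2.95) in cluster 13, led by Lef1, and 0.639 (0.55 to 0.74) in cluster 12, led by Themis and Nkg7, and the difference between them was not tested. Without the 5 leading cells of each library the ratio in cluster 12 was 0.732 (0.62 to 0.87), which is not called. In cluster 13 the levels of 39.3 and 70.3 CPM lay under the 62.0 and 80.3 CPM expected from free RNA in T-like cells.

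The unnamed cluster 15, led by Bmp2, Fcna, Lyve1 and F13a1 and outside the 9 classes compared, had 131 and 272 cells. Its Cd38 level was 474 CPM in the KPC-shV-labelled library and 479 CPM in the KPC-shZEB1-labelled one, above every named class in both. Its P2rx7 level was 117 CPM and 118 CPM, again above every named class.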

How the results depend on the processing

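Of the 63 member and class pairs, 2 were called lower. That count was 5 with a cell filter of 200 genes and 500 UMIs, 4 with each library clustered alone, 10 with free RNA subtracted, 0 with no doublets removed, and 1 with no upper UMI limit, with resolution 0.6, relative to the class median, without barcodes of both libraries and without the 5 leading cells of each gene. The count called higher, 5, stayed between 4 and 7. Pathway pairs called higher went from 33 to 12 with free RNA subtracted, and those called lower from 6 to 10 both with free RNA subtracted and with the looser cell filter. The Entpd3 ratio over all cells was 0.677 with no upper UMI limit, short of a call. Direction reversed for Adora2a in granulocyte-like cells (0.653, free RNA subtracted), Entpd1 in NK-like cells (1.14, without 5 leading cells), in the CD8 T-like sub-cluster 5 (1.06) and in the CD4 T-like sub-cluster 7 (1.06, both without 5 leading cells), Acpp in tumor-like cells (0.580, free RNA subtracted) and Slc28a2 in fibroblast-like cells (0.921, looser filter), and the cause was not tested. With cells thinned to 1000 UMIs the class with the highest share of cells with a UMI was kept in 7 of 14 cases. Co-detection points outside the interval then went from 3 to 0, with few cells with both left in most classes. Leaving out leading cells or shared barcodes and holding cluster make-up fixed were chosen after seeing the data. No paired analysis was possible because each group has 1 library.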

Other observations

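In granulocyte-like cluster 1, cells with a P2rx7 UMI were compared with cells without one for the counted genes within 250 kb of P2rx7, a comparison chosen after its values were seen. Atp2a2, a calcium pump of the endoplasmic reticulum that lies 141686 bases away, was at 711 CPM with and 77.2 CPM without a P2rx7 UMI in the KPC-shV-labelled library, and at 463 and 59.2 CPM in the KPC-shZEB1-labelled one. P2rx4, another ATP-gated channel 16112 bases away, was at 224 and 66.6 CPM, and at 165 and 65.8 CPM. Of 9 such genes with enough UMIs these 2 were higher in both libraries, while 0.946% of 10251 genes over the genome were. UMIs were pooled over 144 and 55 cells with a P2rx7 UMI, so spread between cells is not covered. Values without leading cells are not given, and a link to position near P2rx7 was not tested. Cells with and without P2rx7 had median depths of 2682 and 2951 UMIs, and of 2650 and 2720 UMIs.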
